A study of Bos taurus with 12 samples.

Results

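Lipoprotein lipase (LPL) and the fatty acid receptor CD36 were followed across the 4 media of a study of fat cell formation in cattle. They were chosen by gene identifier as known targets of PPARγ that serve fatty acid uptake, ENSBTAG00000012855 for LPL and ENSBTAG00000017866 for CD36. The choice was made with earlier results of these data known. Of the 3 identifiers listed, these 2 were found among the 22372 genes of the deposited table, and both passed the filter on low values. The entry listed for adiponectin (ADIPOQ, ENSBTAG00000019813) was not analysed here. The symbols come with the choice of genes, since the RefSeq table used here (assembly ARS-UCD2.0) lists LPL and CD36 as protein-coding genes but matched 0 of the table's Ensembl identifiers. Positions in the genome and sequences are not given for the same reason.

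Primary bovine stromal vascular cells (SVC), which the labels call MSC, came from subcutaneous fat of 3 donor animals (replicates A, B and C) and were differentiated for 12 days in serum-free medium. All 4 media shared this base. The reduced differentiation medium (rDM) contained insulin, rosiglitazone, hydrocortisone and progesterone, while rDM 0% Ins lacked insulin, rDM 0% Ros lacked rosiglitazone and rDM 0% HC/PR lacked both steroid hormones. Each donor gave 1 library per medium, 12 in all. The mRNA was extracted in 3 batches, 1 for each donor, so donor and batch cannot be told apart. Age and sex of each donor are not given in the labels, and the cell type was not checked against marker genes, since the identifiers were not paired with names here.

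LPL is secreted by fat cells and carried to the capillary wall, where it splits the triglycerides of circulating lipoproteins into fatty acids. CD36 sits in the plasma membrane and takes up long-chain fatty acids, so that both genes act in sequence to load the cell with lipid from outside. Both are classical target genes of PPARγ, the nuclear receptor that directs fat cell formation and that rosiglitazone activates. Insulin promotes fat storage and is a well-known regulator of LPL in adipose tissue, and hydrocortisone acts through the glucocorticoid receptor.

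Levels are batch-corrected CPM per gene, the count of reads scaled to the total of their own library. Total estimated reads ranged from 302754 to 1153853 per library. The CPM values of a library rise in equal steps of 1 count, so the whole counts behind them could be recovered. These are counts after the batch correction, not the reads sequenced, and how many reads of LPL and CD36 each library held was not analysed here. A level of 3 such counts was worth 2.71 CPM in the deepest library and 10.2 CPM in the shallowest, and LPL and CD36 were above it in all 12. No counting interval is given for single libraries, since the correction moved the counts. Fold changes and tests are from limma on log2(CPM + 1) with the donor as a block, over 9267 genes, with Benjamini-Hochberg adjustment over all of them within each comparison and a threshold of 0.05. The 3 comparisons against rDM share the rDM libraries.

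LPL was highest in rDM, at 1094 CPM in donor A, 1365 CPM in donor B and 1098 CPM in donor C. Without HC/PR it was at 785, 670.4 and 625 CPM in donors A, B and C. Without insulin it was at 348 CPM in donor A, 22.3 CPM in donor B and 40.6 CPM in donor C. Without rosiglitazone it was at 19.0, 58.2 and 34.1 CPM in the same order. Every library of the last 2 media lay below every library of rDM and of rDM 0% HC/PR, while the 2 media overlapped each other. Of the genes tested, 8.03% lay below rDM in this way without insulin and 11.4% without rosiglitazone, and 6.58% and 9.01% lay higher without HC/PR than in those media. The means were 1186 ± 155 CPM in rDM, 694 ± 82.7 CPM without HC/PR, 137 ± 183 CPM without insulin and 37.1 ± 19.8 CPM without rosiglitazone (SD, n = 3 donors each).

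CD36 ran in a different order. In rDM it was at 593 CPM in donor A, 851 CPM in donor B and 927 CPM in donor C. Without insulin it was at 643, 1072 and 864 CPM in donors A, B and C, which overlapped with rDM. Without HC/PR it was at 533, 428 and 419 CPM, below all libraries of rDM, as 7.88% of the genes tested did, and of rDM 0% Ins, as 13% did. Without rosiglitazone it was at 15.2, 21.4 and 34.1 CPM, which stand for 13 batch-corrected counts or fewer in each library. The means were 790.5 ± 175 CPM in rDM, 859 ± 214 CPM without insulin, 459.9 ± 63.5 CPM without HC/PR and 23.6 ± 9.64 CPM without rosiglitazone (SD, n = 3 donors each). In this order, rDM 0% Ins and rDM were not separated by more than the spread between donors.

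**Figure D1:**
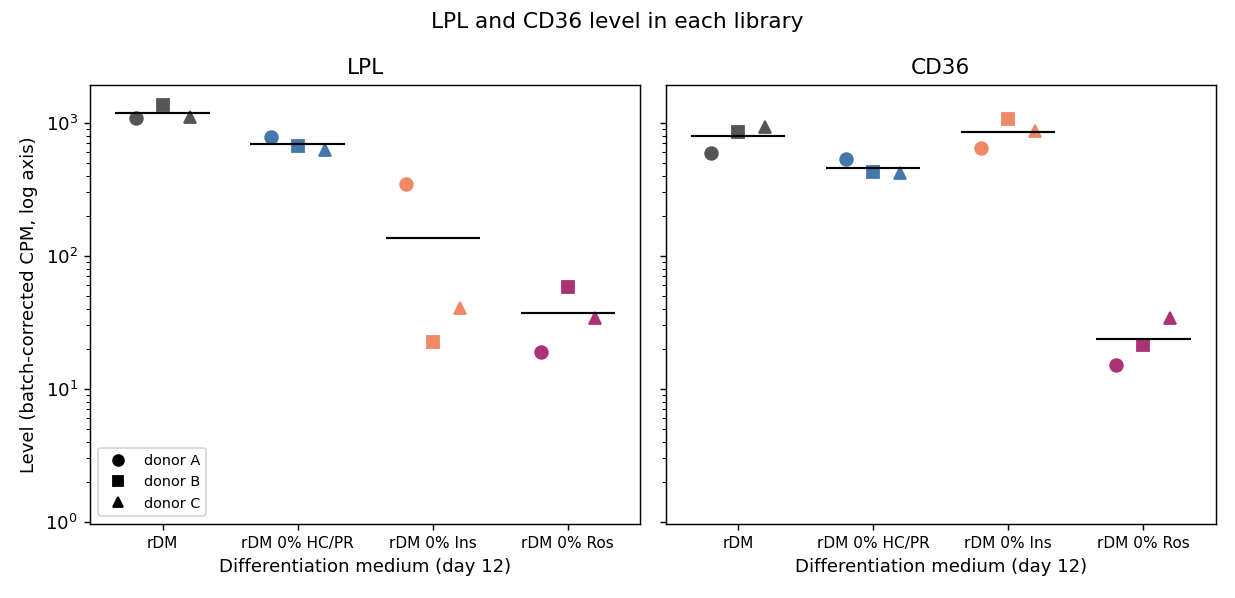
Level of LPL (left) and CD36 (right) in each of the 12 libraries, in batch-corrected CPM on a log axis, by medium. Points are libraries, the marker shape gives the donor and black lines are means of 3 donors. LPL is low in both rDM 0% Ins and rDM 0% Ros, whereas CD36 is low in rDM 0% Ros and overlaps with rDM in rDM 0% Ins.

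The first question was what each gene lost when rosiglitazone was taken out. Both genes fell. LPL fell to 1.73% of the rDM level of the same donor in A, 4.26% in B and 3.10% in C, and CD36 to 2.56%, 2.52% and 3.68%. The log2 fold change of LPL was -5.09 (standard error 0.68, 95% interval -6.56 to -3.62), with an adjusted p of 0.00043 from limma. That of CD36 was -5.06 (standard error 0.25, 95% interval -5.60 to -4.52), with an adjusted p of 4.83e-08 from limma. Lower calls made up 3.27% of the genes tested in this comparison. Larger falls were seen in 32 genes than for LPL and in 35 than for CD36, out of 9267. In bulk libraries such as these, fewer fat cells and less RNA per fat cell cannot be told apart.

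The falls were of like size in both genes, although their difference was not tested. LPL minus CD36, as the difference of their log2 changes within a donor, was -0.58 in donor A, 0.72 in donor B and -0.24 in donor C. Its sign thus changed between donors. Donor B, the donor with the positive value, had its rDM library in a different sequencing pool from its rDM 0% Ros library. With the pool as a term, the log2 fold change was -5.62 for LPL and -4.90 for CD36. Whether the pool bears on the sign in donor B was not tested. The log2 fold change of LPL lay between -5.71 and -4.30 and that of CD36 between -5.32 and -4.89 when a donor or a library was left out, and both stayed past the threshold in all 9 of these fits. The levels that remained without rosiglitazone stand for few batch-corrected counts, 10, 19 and 13 for LPL and 8, 7 and 13 for CD36 in donors A, B and C.

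Without insulin, LPL passed the test and CD36 did not. LPL fell, with a log2 fold change of -4.08 (standard error 0.68, 95% interval -5.55 to -2.61, adjusted p = 0.00992 from limma), and was lower in 3 of 3 donors. Lower calls made up 0.852% of the genes tested. CD36 had a log2 fold change of 0.12 (standard error 0.25, adjusted p = 0.902 from limma), higher in donors A and B and lower in donor C. The 95% interval for CD36, -0.43 to 0.66, runs from 0.744-fold to 1.58-fold of the rDM level. The median gene tested had a log2 fold change of 0.19 here by library size and -0.02 after TMM scaling, and the value of CD36 after TMM scaling was -0.12. The direction of CD36 without insulin therefore depends on the scaling, and it lay close to the median gene under both.

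**Figure D2:**
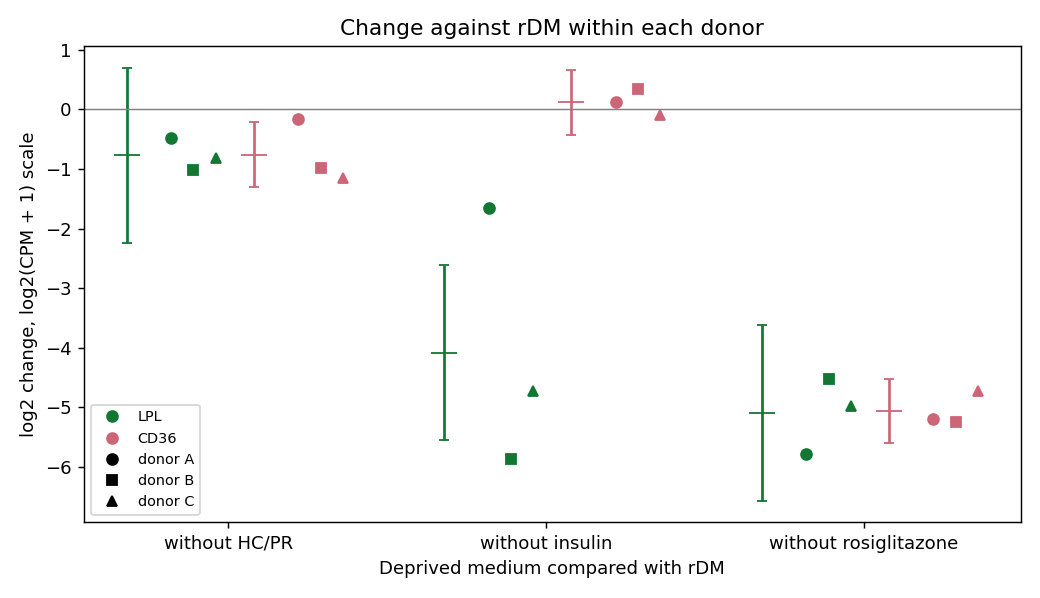
Change of LPL (green) and CD36 (red) against rDM within each donor, on the log2(CPM + 1) scale. Marker shapes are donors, and the horizontal ticks with bars are the limma log2 fold change and its 95% interval. Without rosiglitazone both genes lie between -5.78 and -4.53 in each donor, and without insulin LPL is negative in each donor while CD36 stays between -0.10 and 0.33.

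The fall of LPL without insulin was uneven between donors. LPL kept 31.8% of its rDM level in donor A, 1.64% in donor B and 3.70% in donor C. These levels stand for 193, 10 and 12 batch-corrected counts. With 1 library per donor and medium, and a batch correction applied by donor, a difference between donors, between libraries and by the correction cannot be told apart. CD36 in the same 3 libraries ranged from 643 to 1072 CPM, with its lowest value in donor A, where LPL was highest. In rDM, too, CD36 was lowest in donor A, at 593 CPM. LPL minus CD36, as the difference of log2 changes within a donor, was -1.77 in donor A, -6.20 in donor B and -4.62 in donor C. Its mean was -4.20 ± 2.25 (SD, n = 3 donors), and it was negative in all 3 donors. No test of this difference was run, and an exact sign test on 3 donors cannot give a two-sided p below 0.25.

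The call for LPL without insulin was lost when some libraries were left out, while the log2 fold change stayed between -3.99 and -3.19 in those fits. It was -3.84 without replicate B of rDM (adjusted p = 0.0756), -3.99 without replicate C of rDM (adjusted p = 0.0701) and -3.75 without replicate C of rDM 0% Ins (adjusted p = 0.0891, all limma). It was -3.19 without donor B (adjusted p = 0.0792) and -3.76 without donor C (adjusted p = 0.287, both limma). With replicate A of rDM 0% Ins left out, the log2 fold change was -5.36 and the adjusted p 3.23e-05 (limma). On the recovered counts the fall was smaller, with a log2 fold change of -3.53 in edgeR with the block, -3.15 in edgeR without it and -3.63 in DESeq2 with the block. The direction was the same in all 22 alternatives that gave a p. LPL passed the threshold in each of the 13 of these that left out no donor or library of this comparison. A further setting, DESeq2 with the medium alone, gave no p for LPL and is not among them.

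**Figure D3:**
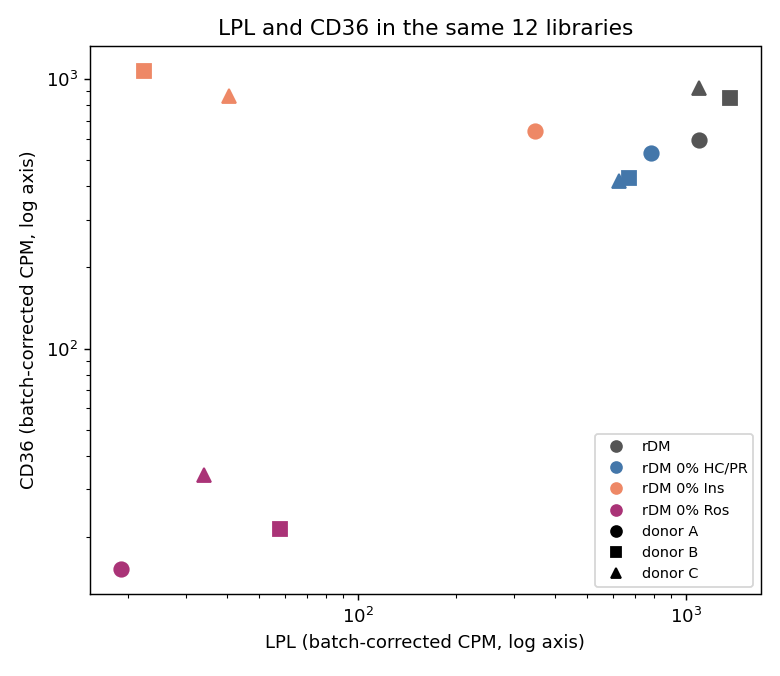
CD36 against LPL in the same 12 libraries, both in batch-corrected CPM on log axes, with the medium by colour and the donor by marker shape. The 3 libraries without rosiglitazone are low for both genes, and the 3 without insulin have CD36 between 643 and 1072 CPM with LPL from 22.3 to 348 CPM.

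Taking out hydrocortisone and progesterone gave changes that did not pass the threshold for either gene. LPL without HC/PR averaged 58.5% of its mean in rDM and CD36 58.2%. The 3 libraries of rDM 0% HC/PR lay below the 3 of rDM for both genes, as they did for 7.88% of the genes tested. Within donors, LPL was at 71.8%, 49.1% and 56.9% of its rDM level in A, B and C, and CD36 was at 89.8%, 50.3% and 45.1%. The log2 fold change of LPL was -0.77 (95% interval -2.24 to 0.70, adjusted p = 0.998 from limma) and that of CD36 was -0.76 (95% interval -1.30 to -0.22, adjusted p = 0.700 from limma). Calls in either direction made up 0.0216% of the genes tested in this comparison.

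The fit shares 1 estimate of the spread of LPL over all 4 media. On the log2 scale the SD was 2.05 in rDM 0% Ins and 0.78 in rDM 0% Ros, against 0.18 in rDM and 0.17 without HC/PR. With only the 6 libraries of rDM and rDM 0% HC/PR in the fit, the unadjusted p of LPL was 0.00232 and the adjusted p 0.558 (limma). Donor B had its rDM library in a different sequencing pool from its rDM 0% HC/PR library. With the pool as a term, the log2 fold change was -1.30 for LPL and -0.60 for CD36. In donors A and C, where all 4 libraries shared a pool, LPL changed by -0.48 and -0.81 and CD36 by -0.15 and -1.15 (log2).

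The deprived media were then compared with each other in the same fit, in which the spread was estimated over all the libraries, those in rDM included. CD36 was lower without rosiglitazone than without insulin by a log2 fold change of -5.17 (standard error 0.25, adjusted p = 4.80e-08 from limma), with 2.36%, 2.00% and 3.95% of the insulin-free level in donors A, B and C. Lower calls made up 1.48% of the genes tested, and 15 of 9267 genes had a larger fall than CD36. LPL had a log2 fold change of -1.01 in this comparison (95% interval -2.48 to 0.46, adjusted p = 0.594 from limma). Its direction differed between donors, with log2 changes of -4.13 in A, 1.34 in B and -0.25 in C. In donor B these 2 libraries were in different sequencing pools, so donor and pool cannot be told apart there. With the pool as a term, the log2 fold change of LPL was -1.54 (adjusted p = 0.509 from limma). With no pool term, the log2 fold change of LPL turned to 0.27 without replicate A of rDM 0% Ins and to 0.55 without donor A. It was -1.96 without replicate B of rDM 0% Ins and -2.19 without donor B.

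LPL was higher without HC/PR than without insulin, with a log2 fold change of 3.31 (standard error 0.68, adjusted p = 0.0348 from limma), and was higher in 3 of 3 donors. Higher calls made up 0.475% of the genes tested. The adjusted p was the largest among the calls made for LPL. The call was lost in 6 of the 13 alternatives that gave a p and in 7 of 9 fits that left out a donor or library. In the fits that lost it the log2 fold change was 3.45, 3.23 and 3.24 without replicates A, B and C of rDM 0% HC/PR (adjusted p = 0.0738, 0.109 and 0.159 from limma), 2.36 and 2.98 without replicates B and C of rDM 0% Ins (adjusted p = 0.159 and 0.237), and 2.54 and 3.01 without donors B and C (adjusted p = 0.179 and 0.491). Without replicate A of rDM 0% Ins it was 4.59 (adjusted p = 0.000189) and without donor A it was 4.38 (adjusted p = 0.00558 from limma). CD36 went the other way in this comparison, with a log2 fold change of -0.88 and an adjusted p of 0.127 from limma. Its adjusted p was 0.0388 and its log2 fold change -1.21 without replicate A of rDM 0% HC/PR.

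Against rDM 0% Ros, both genes were higher without HC/PR. The log2 fold change was 4.32 for LPL (standard error 0.68, adjusted p = 0.00279 from limma) and 4.29 for CD36 (standard error 0.25, adjusted p = 5.34e-07 from limma). Higher calls made up 1.76% of the genes tested. The adjusted p of LPL was 0.0938 without donor C (limma), with a log2 fold change of 4.40.

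Genes of like abundance give a scale for these changes. Over all 12 libraries LPL averaged 513 CPM and CD36 533 CPM, and 392 of the genes tested averaged between 250 and 1000 CPM, a range chosen after the values were seen. Without insulin, 0 of the other genes in this range fell more than LPL, while 217 of them had a lower log2 fold change than CD36. Without rosiglitazone, 3 genes of this range had a lower log2 fold change than LPL and 4 than CD36. Without HC/PR, 16 and 17 genes did, where the median of the range was -0.05. Without HC/PR both genes thus lay toward the lower end of this range, although neither passed the test. Over all 9267 genes tested, 1078 (11.6%) had a lower log2 fold change there than LPL and 1096 (11.8%) than CD36.

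**Figure D4:**
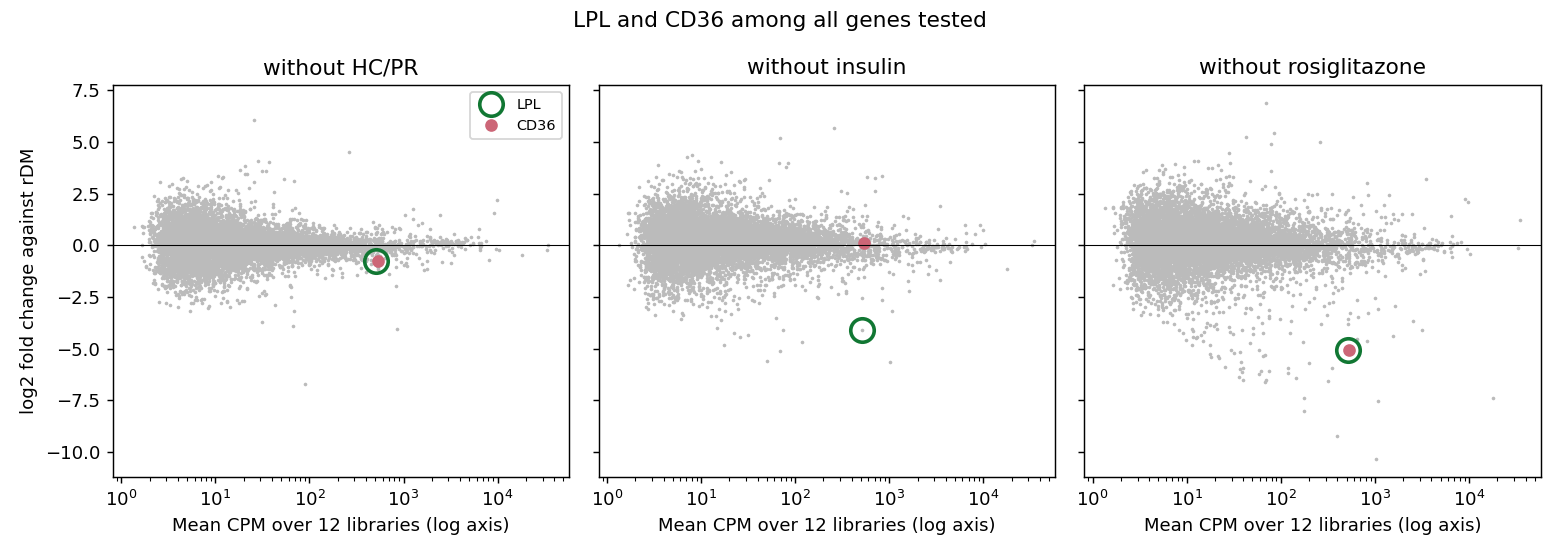
Log2 fold change against rDM of all 9267 genes tested (grey), by mean CPM over the 12 libraries on a log axis, in the 3 deprived media. LPL is the open green circle and CD36 the red point. They lie together without HC/PR and without rosiglitazone, and apart without insulin, at -4.08 and 0.12.

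The likeness of patterns was described by Pearson's r of log2(CPM + 1) over the 12 libraries, among genes with a mean of at least 20 CPM. These libraries fall into media, differ in depth and went through the same batch correction. Between LPL and CD36 r was 0.57. Of 4131 genes, 12.3% were closer to LPL than CD36 was, and 15.6% were closer to CD36 than LPL was. The genes closest to the mean of both standardised patterns were ENSBTAG00000046547 (r = 0.99) and ENSBTAG00000004079 (r = 0.98), out of 4130. ENSBTAG00000046547 was at 2511 ± 438 CPM in rDM, 1424 ± 407 CPM without HC/PR, 331 ± 209 CPM without insulin and 12.9 ± 4.59 CPM without rosiglitazone (SD, n = 3 each). ENSBTAG00000004079 was at 147 ± 15.3 CPM in rDM, 84.6 ± 13.6 CPM without HC/PR, 48.9 ± 21.6 CPM without insulin and 15.8 ± 2.55 CPM without rosiglitazone (SD, n = 3 each). Without insulin their log2 fold changes were -3.17 and -1.65, between those of LPL and CD36. They were not between them without rosiglitazone, at -7.55 and -3.15, or without HC/PR, at -0.85 and -0.80. Since both were picked as closest to the mean of LPL and CD36 over the same libraries, the values without insulin follow in large part from the choice.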

How the data were processed

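Libraries were made by the authors from PCR-amplified cDNA, sequenced on a Nanopore sequencer in 2 pools, aligned with Minimap2 to bovine transcripts of build ARS-UCD1.2 and quantified with Salmon. The authors deposited estimated counts per transcript for each library, used here for depth and the check of pairing, and CPM values per gene, summed by tximport and corrected for batch by ComBat-seq. Whether ComBat-seq was given the media is not stated in the sources used here, and uncorrected transcripts were not assigned to genes, so the corrected table was tested. All of its columns belonged to mapped libraries, and 100% of its values were whole multiples of 1 count (tolerance 0.01), which recovers the counts after ComBat-seq, not the sequenced reads.

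The 9267 genes that reached 5 CPM in 3 or more libraries were fitted with limma 3.58.1 (R 4.3.3) on log2(CPM + 1) and the donor entered as a block. The labels give 1 batch per replicate letter, which the study names as a donor, and this pairs the libraries. In the uncorrected transcripts all 18 pairs of libraries from 1 donor deviated in common (correlations of 0.194 and above), and in the corrected table their correlations ran from -0.345 to 0.0411. Alternatives used edgeR 4.0.16 and DESeq2 1.42.0 on these recovered counts and other blocks, scalings, filters, pseudocounts, depths and samples. LPL and CD36 and all lists were chosen with earlier results of these data known. The rule for further names took the genes closest in pattern, and at most 2 without symbols. Lists of pathway and cell type genes written by symbol were not analysed here, since no identifier was paired with a symbol.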

Additional observations from a re-analysis of the deposited data

How the results depend on the processing

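Over 12 results and 270 alternative values, 250 kept the direction of a called value and the side of the threshold, 19 lost the call, 1 gained it and 0 called values reversed. Both genes were called lower without rosiglitazone in each fit that gave a value. The log2 fold change of LPL in rDM 0% HC/PR against rDM 0% Ins lost its call with a pseudocount of 0.1 (3.34), the library pool in the block (2.79), and on the recovered counts in edgeR with TMM (2.69), with DESeq2's size factors (2.70) and with no replicate block (2.34), and in DESeq2 with the block (2.81). For these, the cause was not tested. In limma with no replicate block, no call changed, and the adjusted p of LPL without insulin was 0.00524 with a log2 fold change of -4.08. Fits with no replicate block make no allowance for the batch correction already applied by donor, so their p can be too small. When each donor or library was left out, LPL lay between -5.36 and -3.14 without insulin, between 2.36 and 4.59 in rDM 0% HC/PR against rDM 0% Ins, and between 3.52 and 4.94 in rDM 0% HC/PR against rDM 0% Ros, and CD36 in rDM 0% HC/PR against rDM 0% Ins lay between -1.21 and -0.66. CD36 without insulin, never called, kept its sign in 16 of 23 alternatives, with values from -0.13 to 0.22. On the recovered counts, edgeR with the block called 156 genes without insulin, 492 genes when rosiglitazone was left out and 3 without HC/PR. DESeq2 with the block called 187, 415 and 19 genes, and with medium alone 325, 627 and 23. With no replicate block limma called 296, 742 and 3, and edgeR 327, 805 and 2. Between rDM 0% Ros and rDM 0% Ins limma called 192 genes, and 48 on the 6 libraries of that comparison alone. The limma counts also moved with the libraries: in fits without 1 library or donor they were 10 to 159 without insulin, against 140 with all libraries, 155 to 387 without rosiglitazone, against 470, and 1 to 4 without HC/PR, against 2, and the shares of genes called move with them. For insulin, 19 genes were called without replicate B of rDM, 28 without replicate C of rDM 0% Ins and 10 without donor C. DESeq2 with the medium alone gave no p for LPL. Uncorrected counts summed per gene were not run, since transcripts were not assigned to genes. The low levels stand for 7 to 19 batch-corrected counts of either gene in each library without rosiglitazone, and 10 and 12 of LPL without insulin in donors B and C, and the sequenced reads behind them were not analysed here.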
